A study of Mus musculus with 36 samples.

Results

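Gene expression in epididymal white adipose tissue (eWAT) was compared between 60% HFD-fed WT mice with a molar ligature and 60% HFD-fed WT mice whose labels name no ligature. The members were the libraries labelled WT and 60% HFD, 3 with a ligature for 2 weeks and 3 without, which makes 6 of the 36 libraries of the series. The ligature, a silk thread tied around upper molars, induces periodontitis, and the comparison asks what this distant oral lesion does to the transcriptome of visceral fat in obese mice. The study covered 12 groups of 3 mice: WT and Adipoq-CCL19-KI mice on 3 diets (a normal diet, ND, and HFDs of 40% and 60%), each combination once ligatured and once not. All were male C57BL/6 mice fed their diet for 10 weeks. The thread was placed at 14 weeks of age, after 8 weeks of feeding. In CCL19-KI mice, *Ccl19* is inserted at the *Adipoq* locus, so that its expression follows a gene active in adipocytes, and the line was bred separately from the WT mice. The general design text of the series speaks of a ligature in every group, whereas the labels of 18 libraries name none. The labels were followed here.

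Ligature-induced periodontitis is a local infection of the gingiva driven by bacteria that gather on the thread, and it leads to loss of alveolar bone. Cytokines and bacterial products can reach other organs through the blood, where cytokine receptors of the IL-6 family and others signal through JAK kinases and STAT transcription factors. STATs switch on their own inhibitors, the SOCS proteins, so that SOCS transcripts are commonly read as a trace of recent cytokine signalling. In obesity, eWAT holds enlarged adipocytes together with macrophages, progenitor cells that express *Pdgfra*, endothelial cells and a matrix rich in collagen.

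The 6 libraries held between 12009475 and 16690271 reads assigned to genes, with a median of 14989652.5, against 11962228 to 21581595 across all 36. Values are normalized CPM of the submitters. In these libraries 1 read stood for 0.0631 to 0.0834 normalized CPM, and a floor of 3 reads stood for 0.189 to 0.250 normalized CPM. Floors of this kind cover counting error only. Across genes, which are not independent replicates, the Pearson correlation of log2 values was 0.969 to 0.990 within the groups and 0.970 to 0.986 between them. Unligatured mice 2 and 3 were the closest pair (0.990). The library closest to ligatured mouse 3 was not of its own group but a ligatured 40% HFD-fed CCL19-KI mouse (0.987). The mice therefore did not separate by ligature in their overall profile.

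The tissue label was checked against 8 defining adipocyte genes. Their summed level was 16902, 14225 and 13635 normalized CPM in unligatured mice 1, 2 and 3, and 17807, 12898 and 10521 in ligatured mice 1, 2 and 3. None of the 8 was at 0 in all 6 mice. *Fabp4*, the fatty acid carrier of adipocytes, was the most abundant (6695, 6131 and 6292 without ligature, 7962, 5948 and 4775 with ligature). The sums of the groups overlapped. None of the 8 genes passed the test described next, and their median log2 fold change was -0.11. It was -0.39 without ligatured mouse 1, -0.005 without ligatured mouse 3 and 0.05 under quantile normalization. In a list of 5 sex-linked genes, Y-linked *Ddx3y* was at 146, 140.1 and 149 and 134, 125 and 123 normalized CPM, while *Xist* did not exceed the floor in any of the 6 mice (the methods describe male mice). None of the 4 tested genes of that list passed the test (median log2 fold change -0.10).

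A gene was called differentially expressed (DEG) by the criteria of the study, a ratio outside 0.67 to 1.5 together with an unadjusted p up to 0.05, here from limma. Of 16417 genes tested, 90 were DEGs (0.548%), 65 higher with ligature (0.396%) and 25 lower (0.152%). An unadjusted p of at most 0.05, without the ratio, was reached by 189 genes (1.15%). That is a smaller share than the 0.05 of genes that would pass this threshold if none differed. The adjusted p was below 0.05 for 0 genes (0%), and the smallest adjusted p was 1. With edgeR on reads recovered from the values, 169 genes met the criteria, 129 higher and 40 lower, 231 had an unadjusted p of at most 0.05, and again 0 had an adjusted p below 0.05. Lower DEGs outnumbered higher ones in limma with only the 6 mice (102 higher and 114 lower) or only the 12 mice fed a 60% HFD (49 and 63). The same held with sample quality weights (405 and 703) and with weights estimated gene by gene (324 and 534). The groups did not overlap at 1748 genes (10.6%), of which 766 were higher and 982 lower in all ligatured mice. Among the 90 DEGs, 75 were separated in this way, 55 higher and 20 lower, and 29 had a mean of at least 10 normalized CPM. The median log2 fold change of all genes was -0.03. The 95% interval of a log2 fold change reached to a median of 0.52 on each side, and for 12646 genes it lay wholly between -1 and 1. Every adjusted p of this comparison was 1, so it is not repeated at each gene.

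The number of DEGs depended on single mice. It was 219 without ligatured mouse 3, 159 without unligatured mouse 1 and 142 without ligatured mouse 1, against 73 without ligatured mouse 2, 85 without unligatured mouse 2 and 88 without unligatured mouse 3. The higher DEGs numbered 146, 86, 106, 38, 59 and 46 in the same order, and the lower DEGs 73, 73, 36, 35, 26 and 42. The adjusted p was below 0.05 for 0 genes in each of these 6 fits. Only 10 of the 90 DEGs met the criteria in all 6 fits, 8 higher (*Cyp2b10*, *Gm12751*, *Ifi205*, *Egfros*, *Gm16042*, *Alx4*, *Rfx2* and *Gpc3*) and 2 lower (*H1fx* and *Bvht*). *Rfx2* and *Gpc3* were singled out after their values were seen. So was *Bvht* here, although it was also named by the rule for differences from the 40% HFD.

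**Figure D1:**
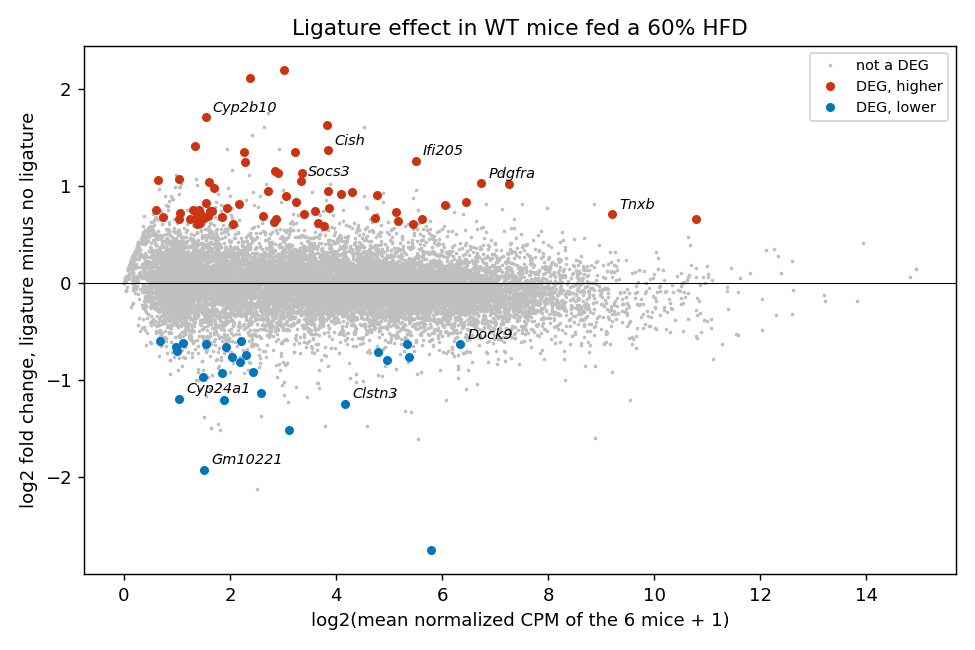
Log2 fold change (ligature minus no ligature, vertical axis) against the log2 mean normalized CPM of the 6 mice plus 1 (horizontal axis), 1 dot per gene tested, for WT mice fed a 60% HFD. The 65 higher DEGs (red) and 25 lower DEGs (blue) lie mostly at low levels, with *Tnxb* and *Pdgfra* among the abundant ones.

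Genes were named mainly by a rule, the 12 largest rises and the 12 largest falls among DEGs whose groups did not overlap. For genes named by this rule, the separation of the groups follows from the choice and is no further result. The largest rise was that of *Cyp2b10*, a xenobiotic-metabolizing cytochrome P450 best known from liver. Its level was 0.335, 0.334 and 0.230 normalized CPM in unligatured mice 1, 2 and 3, and 2.66, 2.09 and 5.81 in ligatured mice 1, 2 and 3. The log2 fold change was 1.71 (SE 0.54), and ligatured mouse 3 held the highest value. Without that mouse the change was 1.37. The lowest ligatured value was several times the highest unligatured one, yet the unligatured values lay close to the floor of 3 reads.

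*Ifi205* is an interferon-inducible gene of the p200 family. It was at 21.6, 22.9 and 31.9 normalized CPM without ligature and 66.1, 76.9 and 46.3 with ligature, a log2 fold change of 1.27 (SE 0.35). All ligatured mice lay above all unligatured ones, with mouse 3 the lowest of the ligatured. Its neighbour in the family, *Ifi204*, was also a higher DEG, a gene picked after its values were seen (40.6, 27.4 and 33.6 without ligature, 53.3, 59.8 and 43.1 with ligature, log2 fold change 0.61). Members of this family are near-identical in parts, and how reads were divided among them was not tested. A list of 24 other interferon-stimulated genes held 0 DEGs, and 18 of them lay below 0, with a median log2 fold change of -0.17. *Ifi204* lost its call in 4 of the 6 fits, those without ligatured mouse 1 (0.59), ligatured mouse 2 (0.51), unligatured mouse 2 (0.47) or unligatured mouse 3 (0.62).

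*Alx4*, a homeobox transcription factor of mesenchymal cells, was at 0.939, 0.751 and 1.31 normalized CPM without ligature and 2.66, 3.61 and 3.09 with ligature, a log2 fold change of 1.05 (SE 0.37). *Rfx2*, another transcription factor, was at 4.56, 5.25 and 4.07 and 9.72, 13.8 and 6.25, a log2 fold change of 0.90 (SE 0.27). For each of these genes all ligatured mice were above all unligatured mice, and ligatured mouse 2 held the highest value. That mouse also held RNA of other tissues, given below, whose part in these genes was not tested. *Egfros* had the smallest SE of the 12 rises, with 1.74, 2.00 and 1.92 normalized CPM without ligature and 5.90, 6.26 and 5.49 with ligature (log2 fold change 1.25, SE 0.27). It is an RNA named for its overlap with *Egfr* on the opposite strand. The library kit keeps the strand, but the sources used here do not say whether strand was used in counting. *Egfr* itself was at 133, 193 and 326 and 211, 202 and 219 normalized CPM, groups that overlap, with a log2 fold change of 0.05 (95% interval -0.71 to 0.81).

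The predicted genes *Gm12751* and *Gm16042* completed the rises that met the criteria in all 6 fits. *Gm12751* was at 0, 0.834 and 0.384 normalized CPM without ligature and 2.27, 2.49 and 3.28 with ligature (log2 fold change 1.42), and *Gm16042* at 0, 0.167 and 0.845 and 2.33, 2.01 and 1.01 (log2 fold change 1.08). Unligatured mouse 1 was at 0 for each. *Morf4l1-ps1*, named as a pseudogene of *Morf4l1*, was at 3.15, 7.67 and 5.91 normalized CPM without ligature and 16.6, 10.4 and 35.9 with ligature, a log2 fold change of 1.63 (SE 0.57). It was not a DEG without ligatured mouse 3 (1.17) or unligatured mouse 1 (1.33). Its parent gene *Morf4l1* had a log2 fold change of -0.19 (95% interval -0.44 to 0.06), and how reads were shared between the copies was not tested. *Gm43694* was at 0 in all 3 unligatured mice and at 0.907, 0.723 and 1.77 normalized CPM in the ligatured mice. Against the floor of 3 reads in a library (0.250 normalized CPM) it was at least 4.53-fold higher with ligature, and it met the criteria in 2 of the 6 fits, not without ligatured mouse 3 (0.86) or any 1 of the unligatured mice (each 1.06).

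*Socs3*, the inhibitor that STAT3 induces downstream of IL-6 family cytokines and leptin, was at 5.83, 5.34 and 5.22 normalized CPM without ligature and 15.7, 14.0 and 8.59 with ligature. The log2 fold change was 1.05 (SE 0.39). The unligatured mice lay within 1 normalized CPM of each other, and all ligatured mice were above them, mouse 3 least so. Without ligatured mouse 1 the change was 0.89, no longer a DEG.

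The other SOCS genes *Socs1* (0.53), *Socs2* (0.58), *Socs4* (-0.11), *Socs5* (0.20), *Socs6* (-0.09) and *Socs7* (0.07), given with their log2 fold change, were not DEGs. They and the following genes were picked after values were seen, and no pathway list was tested. *Cish*, the inhibitor that STAT5 induces, was at 4.56, 5.50 and 8.76 normalized CPM without ligature and 19.0, 34.6 and 7.64 with ligature (log2 fold change 1.37, SE 0.46). Ligatured mice 1 and 2 were above all unligatured mice and mouse 3 was within their range, so the groups overlapped. Without ligatured mouse 2 the change was 0.89 and not a DEG. *Osmr*, the receptor chain that binds oncostatin M, an IL-6 family cytokine, was at 31.2, 22.7 and 26.7 normalized CPM without ligature and 44.1, 48.5 and 35.4 with ligature (log2 fold change 0.65, SE 0.23). *Myc*, a transcription factor gene that responds to growth factors and cytokines, was at 6.30, 6.34 and 8.14 and 15.0, 11.6 and 9.66 (log2 fold change 0.71, SE 0.21). The groups did not overlap for *Osmr* or *Myc*. The call of *Osmr* was lost without ligatured mouse 2 (0.55) or unligatured mouse 2 (0.54), and that of *Myc* without ligatured mouse 1 (0.56). *Il6* was too low to be tested, at 0.134, 0 and 0 normalized CPM without ligature and 0.194, 0.161 and 0 with ligature, all at or below the floor of 3 reads (two-sided exact permutation p 0.4, where the smallest possible is 0.1).

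The RefSeq promoters of *Socs3*, *Cish* and *Osmr* (build GRCm38.p6, 250 bases before to 50 after the start) were searched for TTCNNNGAA, the core that STAT dimers bind, where N is any base. The motif reads the same on both strands. Capitals mark matches, 1 at *Socs3* (chr11:117969317-117969616, minus strand), 2 at *Cish* (chr9:107296409-107296708, plus strand) and 0 at *Osmr* (chr15:6874264-6874563, minus strand), and each sequence is given 5′ to 3′ on the strand of its gene.
Socs3: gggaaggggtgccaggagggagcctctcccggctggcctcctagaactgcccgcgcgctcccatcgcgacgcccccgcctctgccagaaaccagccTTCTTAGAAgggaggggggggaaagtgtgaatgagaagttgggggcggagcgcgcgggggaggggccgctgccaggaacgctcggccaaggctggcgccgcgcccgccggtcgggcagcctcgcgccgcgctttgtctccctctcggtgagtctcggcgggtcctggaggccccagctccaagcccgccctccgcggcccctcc
Cish: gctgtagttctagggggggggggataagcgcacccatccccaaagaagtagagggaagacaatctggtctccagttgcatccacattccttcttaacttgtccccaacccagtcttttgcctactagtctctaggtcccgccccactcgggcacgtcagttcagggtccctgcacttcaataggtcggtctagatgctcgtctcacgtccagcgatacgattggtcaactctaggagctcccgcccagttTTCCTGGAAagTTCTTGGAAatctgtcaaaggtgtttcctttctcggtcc
Osmr: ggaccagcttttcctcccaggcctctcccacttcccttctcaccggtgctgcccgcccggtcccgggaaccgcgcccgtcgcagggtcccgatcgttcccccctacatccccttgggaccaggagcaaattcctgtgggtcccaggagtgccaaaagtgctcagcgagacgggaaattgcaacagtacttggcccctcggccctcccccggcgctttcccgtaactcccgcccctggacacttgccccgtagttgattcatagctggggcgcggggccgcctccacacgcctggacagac
Among all 27025 promoters of the table, 2582 (9.55%) hold the motif, as do 988 of the 11732 tested genes with a promoter there (8.42%). It was present in 6 of the 37 higher DEGs with a promoter (16.2%), namely *Cish*, *Egfros*, *Pla2g7*, *Rarb*, *Socs3* and *Tmem108*, and in 1 of the 14 lower ones (7.14%), *Apold1*. The motif and the 3 promoters were chosen after the expression values were seen, and *Socs3* and *Cish* are counted among the 6 higher DEGs that hold it. The share of 16.2% can therefore not serve as a test of the motif. A match is a description of the letters and says nothing of binding in eWAT.

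Other rises by the rule rested on fewer mice. *Clec4d*, a C-type lectin receptor of macrophages and neutrophils, was at 2.08, 1.08 and 1.08 normalized CPM without ligature and 2.14, 4.50 and 12.0 with ligature (log2 fold change 1.36, SE 0.54). Ligatured mouse 1 barely exceeded unligatured mouse 1, and ligatured mouse 3 held the highest value. The call was lost without ligatured mouse 3 (0.81), unligatured mouse 2 (1.27) or unligatured mouse 3 (1.26). *Krt14*, the keratin of basal epithelial cells, was at 3.89, 2.84 and 5.22 and 7.71, 21.9 and 8.71 normalized CPM (log2 fold change 1.35, SE 0.63), with ligatured mouse 2 the highest. That mouse also had the highest sums of epididymis (53.6 normalized CPM) and male germ cell (65.8) markers of the 6, and their part in *Krt14* was not tested. *Krt14* met the criteria in 1 of the 6 fits, that without ligatured mouse 1, and its change ranged from 0.91 without ligatured mouse 2 to 1.61. It was not a DEG without ligatured mouse 3 (1.53) or unligatured mouse 1 (1.35), 2 (1.18) or 3 (1.53). *B3gnt2*, which builds the lactosamine chains of glycoproteins, was at 1.94, 8.09 and 7.37 and 11.5, 9.15 and 17.8 normalized CPM (log2 fold change 1.14, SE 0.42). Unligatured mouse 1 was far below the others, and without it the change was 0.62, not a DEG. Nor was it one without ligatured mouse 3 (0.89).

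**Figure D2:**
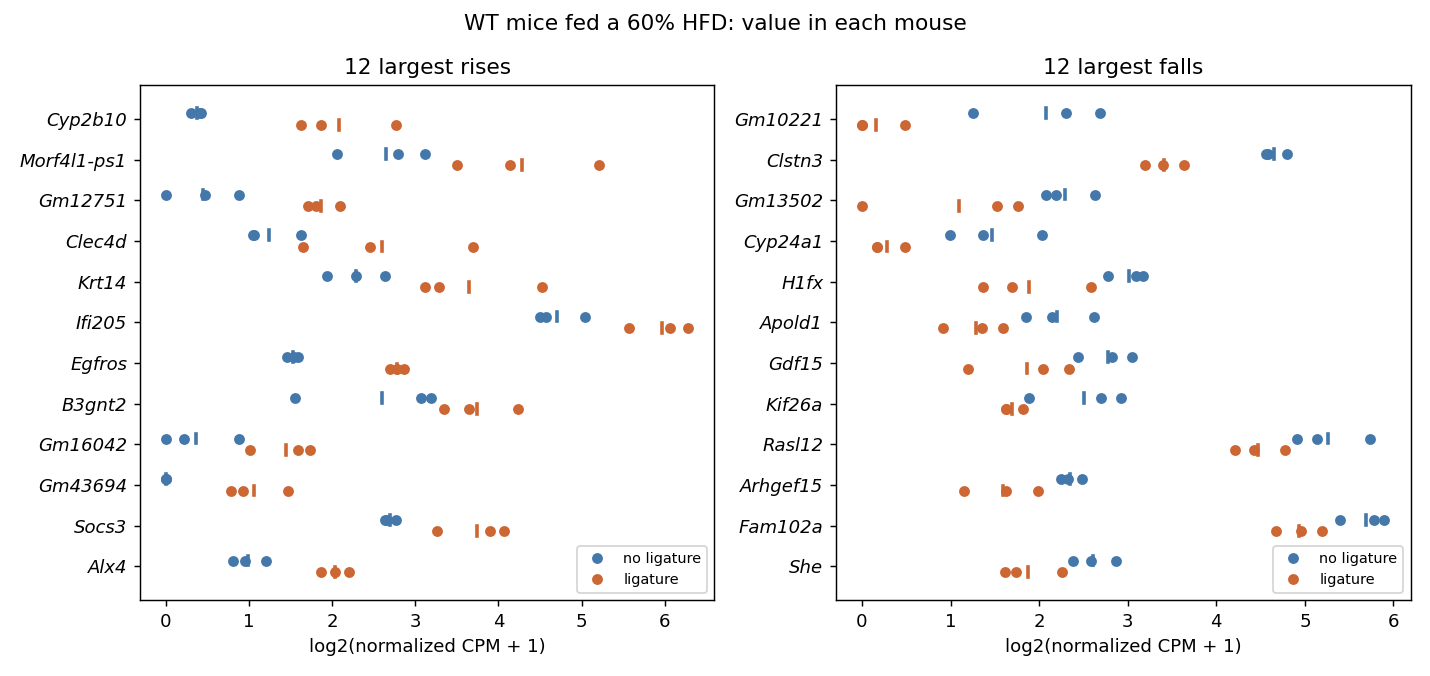
Log2(normalized CPM + 1) in each mouse (dots) with group means (short vertical lines) for the 12 largest rises (left) and the 12 largest falls (right) among DEGs whose groups did not overlap, in WT mice fed a 60% HFD. Unligatured mice are blue and ligatured mice orange.

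Among the falls, *Cyp24a1* encodes the mitochondrial enzyme that inactivates the active form of vitamin D. It was at 3.08, 1.58 and 0.998 normalized CPM without ligature and 0.130, 0.401 and 0.126 with ligature, a log2 fold change of -1.19 (SE 0.27). All ligatured mice lay below all unligatured mice, and 2 of them were under the floor of 3 reads. Without unligatured mouse 1 or 2 the gene no longer passed the filter on low values and could not be tested. *Clstn3*, which encodes the transmembrane protein calsyntenin 3, was at 22.5, 23.0 and 26.9 and 11.4, 8.19 and 9.53 normalized CPM (log2 fold change -1.24, SE 0.46). Its groups were well separated, and of the 6 fits only that without ligatured mouse 2 lost the call (-1.13).

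*H1fx*, a linker histone gene, was at 8.05, 7.51 and 5.84 normalized CPM without ligature and 4.99, 2.25 and 1.58 with ligature (log2 fold change -1.13, SE 0.36). Ligatured mouse 1 was the closest to the unligatured mice. *Bvht*, a long noncoding RNA known from heart development, was at 1.48 ± 0.0213 (mean ± SD) without ligature and 0.324, 0.723 and 0.568 normalized CPM with ligature (log2 fold change -0.70, SE 0.20). Its 3 unligatured values were nearly equal. *Gdf15*, a stress-induced cytokine of the TGF-beta superfamily that acts on appetite centres of the brainstem, was at 6.10, 4.42 and 7.30 normalized CPM without ligature and 2.82 ± 1.40 (mean ± SD) with ligature (log2 fold change -0.91, SE 0.36). It was not a DEG without ligatured mouse 1 (-0.58), unligatured mouse 1 (-0.89) or unligatured mouse 3 (-0.77).

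Further falls of the rule were those of *Apold1*, *Arhgef15* and *She*. *Apold1*, an endothelial early response gene, was at 5.16, 3.42 and 2.61 normalized CPM without ligature and 1.55, 0.883 and 2.02 with ligature (log2 fold change -0.92, SE 0.34). *Arhgef15*, a guanine nucleotide exchange factor of endothelial cells, was at 4.02, 4.59 and 3.76 and 1.23, 2.09 and 2.97 (log2 fold change -0.76, SE 0.28). *She*, an SH2 adaptor, was at 4.22, 5.00 and 6.30 and 2.07, 2.33 and 3.79 (log2 fold change -0.74, SE 0.28). None of these groups overlapped, although ligatured mouse 3 came closest to the unligatured mice for *Arhgef15* and *She*. Calls were lost for *Apold1* without ligatured mouse 2 (-0.73) or unligatured mouse 1 (-0.71), and for *Arhgef15* without ligatured mouse 1 (-0.55) or unligatured mouse 2 (-0.70). For *She* they were lost without ligatured mouse 1 (-0.62) or 2 (-0.67) or unligatured mouse 3 (-0.61). The 18 genes of a wider endothelial list held 0 DEGs, and 15 of them lay below 0 (13 under quantile normalization), with a median of -0.30. The growth factor *Vegfa* and its receptor *Kdr*, the most abundant of that list, had log2 fold changes of -0.04 and -0.11. In bulk tissue fewer cells of a type and less RNA per cell cannot be told apart.

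The remaining falls of the rule were *Rasl12*, *Fam102a*, *Kif26a*, *Gm13502* and *Gm10221*. *Rasl12*, a Ras-like gene, was at 52.4, 34.1 and 29.0 normalized CPM without ligature and 26.4, 20.6 and 17.5 with ligature (log2 fold change -0.79), and *Fam102a* at 41.2, 54.1 and 58.6 and 24.5, 29.9 and 35.5 (log2 fold change -0.76). Each met the criteria in 2 of the 6 fits. The calls of *Rasl12* were lost without ligatured mouse 2 (-0.77) or 3 (-0.66) or unligatured mouse 1 (-0.55) or 2 (-0.85), and those of *Fam102a* without ligatured mouse 1 (-0.62) or 2 (-0.76) or unligatured mouse 2 (-0.71) or 3 (-0.65). *Kif26a*, of the kinesin family, was at 6.57, 5.50 and 2.69 and 2.53, 2.09 and 2.08 (log2 fold change -0.81), and was not a DEG without unligatured mouse 1 (-0.60). The predicted genes *Gm13502* (3.55, 5.17 and 3.23 without ligature, 1.88, 0 and 2.40 with ligature) and *Gm10221* (3.96, 5.42 and 1.38 and 0, 0.401 and 0) had log2 fold changes of -1.20 and -1.92. *Gm13502* lost its call without ligatured mouse 2 (-0.65), unligatured mouse 1 (-1.26) or unligatured mouse 2 (-1.04). *Gm10221* lost it without ligatured mouse 1 (-1.84) or 3 (-1.84) or unligatured mouse 1 (-1.81) or 2 (-1.62).

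The most abundant higher DEG was *Rpph1*, the RNA of RNase P, at 1166, 1398 and 1413 normalized CPM without ligature and 1462, 3072 and 2042 with ligature (log2 fold change 0.66, SE 0.27). It was picked after its values were seen, and it was not a DEG without ligatured mouse 2 (0.39) or unligatured mouse 1 (0.57). *Rpph1* and *Rmrp* together made up 0.206%, 0.203% and 0.198% of reads without ligature and 0.199%, 0.459% and 0.287% with ligature.

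*Pdgfra*, the receptor that marks adipose progenitors and fibroblasts, was at 87.5, 69.4 and 51.5 normalized CPM without ligature and 119, 177 and 131 with ligature. The log2 fold change was 1.04 (SE 0.38). All ligatured mice were above all unligatured mice, with ligatured mouse 2 the highest and unligatured mouse 3 the lowest, and the call was lost without the former (0.87) or the latter (0.84). *Pdgfra* was the 1 DEG among 14 tested genes of the adipose progenitor list, whose median was 0.16 (0.05 without ligatured mouse 2 and 0.38 without ligatured mouse 3), where 0.396% of all genes tested were higher DEGs. *Dcn*, the proteoglycan decorin and the most abundant of that list, was at 1382, 1269 and 1309.5 and 1702, 2120.5 and 1718, also without overlap, and missed the criteria (log2 fold change 0.48, 95% interval -0.06 to 1.01).

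Matrix genes outside the rule were picked after their values were seen. *Tnxb*, the matrix glycoprotein tenascin-X, was at 510.1, 461 and 371 normalized CPM without ligature and 716, 862 and 626 with ligature (log2 fold change 0.71, SE 0.26). The hemicentins *Hmcn2* (112, 101 and 84.0 and 180.3, 250.3 and 181) and *Hmcn1* (20.9, 17.8 and 15.7 and 33.0, 39.4 and 32.4) had log2 fold changes of 1.03 and 0.91. *Gpc3*, a heparan sulfate proteoglycan of the cell surface, was at 42.6, 41.3 and 59.6 and 78.4, 94.6 and 78.9 (log2 fold change 0.81, SE 0.27). In all 4 genes the groups did not overlap and ligatured mouse 2 was the highest. That mouse also had the highest sums of epididymis (53.6 normalized CPM), male germ cell (65.8) and kidney tubule (538) markers of the 6 and the highest share of *Rpph1* and *Rmrp* (0.459%), and their part in these genes was not tested. The calls of *Tnxb*, *Hmcn2* and *Hmcn1* were lost without that mouse (0.59, 0.87 and 0.83) or without unligatured mouse 3 (0.59, 0.91 and 0.82), and that of *Hmcn2* also without unligatured mouse 2 (1.05). The 25 genes of a collagen and fibrosis list held 0 DEGs with a median of 0.09 (0.02 without ligatured mouse 1, 0.24 without unligatured mouse 1 and 0.21 under quantile normalization). Its most abundant member *Sparc* was at 6003, 4277 and 4470.4 and 3820.3, 3542 and 3125, lower in all ligatured mice, with a log2 fold change of -0.48 (95% interval -1.44 to 0.48). *Col3a1*, of the fibrillar collagens, had a log2 fold change of 0.00 (95% interval -0.94 to 0.95).

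Some genes that the study measured in eWAT or named there were chosen as well. The groups overlapped for *Tnf*, *Il1b*, *Ccl2*, *Ccl19*, *Spp1*, *Gpnmb* and *Atp6v0d2*. The inflammatory cytokine *Tnf* was at 0.514 ± 0.170 normalized CPM (mean ± SD) without ligature and 0.194, 0.963 and 1.26 with ligature (log2 fold change 0.21, 95% interval -0.45 to 0.87). *Il1b* was at 1.01, 0.667 and 0.538 and 0.907, 0.321 and 0.947 (log2 fold change -0.02, 95% interval -0.67 to 0.62). The monocyte chemokine *Ccl2* was at 8.25, 3.25 and 5.99 and 7.19, 6.90 and 4.67 (log2 fold change 0.14, 95% interval -1.13 to 1.41). No mouse stood out in *Il1b* or *Ccl2*, and for *Tnf* ligatured mice held the lowest and the highest value.

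*Ccl19*, the chemokine that attracts cells with the receptor CCR7, was at 1.23 ± 0.173 normalized CPM (mean ± SD) without ligature and 1.11 ± 0.169 with ligature, the most even of these genes (log2 fold change -0.08, 95% interval -1.36 to 1.19). The width of that interval comes from the variance over the WT mice of all 3 diets and does not measure the spread of these 6. *Spp1* encodes osteopontin and is a product of lipid-associated macrophages in obese fat. It was at 8.78, 4.84 and 5.30 and 3.11, 14.5 and 46.7 (log2 fold change 1.03, 95% interval -0.55 to 2.61). *Gpnmb*, a glycoprotein of the same macrophages, was at 201, 60.1 and 86.6 and 58.2, 210.3 and 474 (log2 fold change 0.82, 95% interval -1.34 to 2.98). *Spp1* and *Gpnmb* shared an order of mice, with ligatured mouse 3 highest, ligatured mouse 2 next and ligatured mouse 1 lowest of all 6. *Atp6v0d2*, a subunit of the vacuolar proton pump in osteoclasts and macrophages, had that order as well, at 71.9, 18.5 and 35.6 and 13.9, 77.6 and 120.3 (log2 fold change 0.48, 95% interval -1.59 to 2.56). For each of the 7 genes the 95% interval includes 0.

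Of the immune lists 2 held a DEG each, where 0.548% of all genes tested were DEGs. Among 7 tested of 15 neutrophil genes, *Retnlg*, a resistin-like protein of neutrophils, was the 1 DEG (0.134, 0 and 0.154 normalized CPM without ligature, 0.648, 0.321 and 1.89 with ligature, log2 fold change 0.76), and the list median was 0.75 (0.30 without ligatured mouse 3 and 0.50 without ligatured mouse 1). Its unligatured values were below the floor of 3 reads, and the call was lost without ligatured mouse 3 (0.43) or unligatured mouse 2 (0.69). *S100a8*, the calcium-binding protein most abundant in the list, ran from 27.4, 7.51 and 12.0 without ligature to 2.92, 6.42 and 21.7 with ligature, groups that overlap. The granule genes *Camp* (0, 0 and 0 and 0.0648, 0.161 and 4.17) and *Ngp* (0.0670, 0 and 0 and 0, 0.321 and 5.43) were too low to be tested, and ligatured mouse 3 was the 1 mouse clearly above the floor. Among 12 dendritic cell genes the 1 DEG was *Ccl22*, a chemokine for CCR4-bearing T cells (1.01, 0.834 and 1.15 and 2.98, 2.01 and 1.70, log2 fold change 0.68, list median 0.04). Its call was lost without ligatured mouse 1 (0.52), unligatured mouse 1 (0.68) or unligatured mouse 2 (0.62). The median of the dendritic cell list was -0.03 without ligatured mouse 2 and 0.08 without unligatured mouse 1. *Irf8*, the transcription factor most abundant in that list, had a log2 fold change of 0.02.

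The 18 macrophage genes held 0 DEGs, and 16 lay above 0 with a median log2 fold change of 0.34. Their summed level was 2595, 1812 and 1856 normalized CPM without ligature and 2878, 3397 and 1986 with ligature. The sums overlapped, since ligatured mouse 3 was below unligatured mouse 1. The median was 0.46 under quantile normalization and 0.35 under median-of-ratios scaling, and it ranged from 0.14 without ligatured mouse 2 to 0.64 without ligatured mouse 3. *Lyz2*, the lysozyme of myeloid cells, had a log2 fold change of 0.33 and the growth factor receptor *Csf1r* one of 0.26. The 16 lipid-associated macrophage genes held 0 DEGs with a median of 0.28, which was -0.05 without ligatured mouse 3, 0.03 without unligatured mouse 2, 0.62 without ligatured mouse 1 and 0.65 without unligatured mouse 1. In this list the lipid droplet protein *Plin2* was at -0.37 and the lectin *Lgals3* at 0.26.

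Across the other immune lists 0 genes were DEGs. The medians were 0.26 for 11 bone resorption signals, 0.23 for 17 complement genes, 0.10 for 25 genes of Toll-like receptors and NF-kappaB, 0.03 for 24 cytokines and chemokines, -0.06 for 9 MHC class II genes, -0.08 for 18 acute phase genes, -0.09 for 10 T and NK cell genes, -0.17 for 24 interferon-stimulated genes and -0.42 for 15 B and plasma cell genes. These medians depended on single mice. With the mouse left out in brackets, they ran from 0.16 (ligatured mouse 2) to 0.42 (unligatured mouse 1) for bone resorption, 0.08 (unligatured mouse 1) to 0.27 (unligatured mouse 3) for complement, 0.03 (ligatured mouse 2) to 0.12 (ligatured mouse 3) for Toll-like receptors and NF-kappaB and -0.12 (ligatured mouse 3) to 0.23 (unligatured mouse 1) for cytokines. They ran from -0.21 (ligatured mouse 1) to 0.10 (unligatured mouse 1) for MHC class II, -0.41 (unligatured mouse 1) to 0.32 (unligatured mouse 3) for acute phase genes, -0.10 (unligatured mouse 3) to 0.07 (unligatured mouse 1) for T and NK cells, -0.28 (ligatured mouse 3) to -0.13 (unligatured mouse 3) for interferon-stimulated genes and -0.60 (ligatured mouse 3) to -0.18 (unligatured mouse 1) for B and plasma cells. Their most abundant members included complement *C3* (log2 fold change 0.28) and *C4b* (0.07), the chemokines *Ccl9* (0.35) and *Ccl6* (0.51), the invariant chain *Cd74* (-0.06) and *H2-Aa* (-0.00). Further ones were the phosphatase *Acp5* (-0.38), the kinase *Irak1* (-0.06), the cytokine receptor genes *Il7r* (0.24) and *Il2ra* (-0.07), *Ifi27l2a* (0.02), *Iigp1* (-0.56), the immunoglobulin heavy chain *Ighm* (-0.25), the transcription factor *Xbp1* (0.17) and fibrinogen *Fga* (0.18).

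Haptoglobin and the LPS-binding protein were lower in all ligatured mice without being DEGs. *Hp*, which binds free hemoglobin and is an acute phase product of fat as well as liver, was at 3989.6, 2249 and 2859 normalized CPM without ligature and 1924, 1845 and 1952 with ligature (log2 fold change -0.63, 95% interval -1.66 to 0.40). *Lbp*, which hands LPS to CD14, was at 470.3, 254 and 298 and 244, 218 and 184 (log2 fold change -0.62, 95% interval -1.54 to 0.30). The intervals include 0 in each case.

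Lists of lipid and energy metabolism held 0 DEGs and had medians below that of all genes (-0.03). All 16 fatty acid oxidation genes lay below 0 with a median log2 fold change of -0.48, a range from -1.32 to -0.15. The mitochondrial dehydrogenase *Acadm* was at 469, 537 and 775 normalized CPM without ligature and 389, 374 and 502 with ligature, where unligatured mouse 3 was the highest and ligatured mouse 3 lay within the unligatured range (log2 fold change -0.47). The list summed to 4419.9, 6494 and 9667 without ligature and 3896, 3732 and 5442 with ligature. Hepatocyte markers summed to 11962, 35295 and 49681 and 20176, 14675 and 44209, and unligatured mouse 3 was the highest in each sum. The medians of the list and of these markers were 0.16 and 6.55 under ND, -0.80 and -2.24 under the 40% HFD and 1.16 and 4.68 in 60% HFD-fed CCL19-KI mice. The part of liver RNA in the fatty acid oxidation list was not tested. All 16 genes stayed below 0 under quantile normalization (median -0.35) and median-of-ratios scaling (median -0.47). The median was -0.77 without unligatured mouse 1 and -0.24 without unligatured mouse 3, and 15 of the 16 lay below 0 without ligatured mouse 1.

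All 22 oxidative phosphorylation genes lay below 0 as well, 17 of them under quantile normalization, with a median of -0.22 and a range from -0.44 to -0.04. The median was -0.14 without ligatured mouse 2, -0.11 without unligatured mouse 3 and -0.33 without unligatured mouse 1. The ATP synthase subunits *Atp5b* (-0.24) and *Atp5a1* (-0.22) were the most abundant. Of 20 cholesterol synthesis genes 19 lay below 0 (median -0.38), 19 under each scaling and 17 without ligatured mouse 2 (median -0.22), with *Hmgcs1*, an early enzyme of the pathway, at -0.37 and its regulator *Insig1* at -0.48. Of 17 genes of triglyceride synthesis and lipolysis 16 lay below 0, 12 under quantile normalization (median -0.25, and -0.05 without ligatured mouse 3). Among them *Acsl1*, which activates fatty acids, was at 2071, 2054 and 2244 normalized CPM without ligature and 1567, 1190.1 and 1599 with ligature, groups that do not overlap (log2 fold change -0.56, 95% interval -1.34 to 0.22), and the lipase *Lpl* had -0.31. These lists are described by counts and medians, and no list was tested as a whole.

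The remaining metabolic lists also held 0 DEGs. The median was -0.31 for 11 thermogenesis genes, -0.15 for 15 fatty acid synthesis genes, -0.09 for 16 adipocyte identity genes and -0.08 for 15 insulin signalling genes. With the mouse left out in brackets, the medians ran from -0.39 (unligatured mouse 2) to -0.05 (unligatured mouse 1) for thermogenesis, -0.24 (ligatured mouse 1) to -0.04 (unligatured mouse 3) for fatty acid synthesis, -0.39 (ligatured mouse 1) to 0.05 (ligatured mouse 3) for adipocyte identity (0.05 under quantile normalization) and -0.24 (ligatured mouse 1) to -0.06 (ligatured mouse 2) for insulin signalling. The desaturase *Scd1* was at 25389, 29296 and 26794 normalized CPM without ligature and 47694, 19153 and 24933 with ligature, where ligatured mouse 1 was the highest and ligatured mouse 2 the lowest of the 6 (log2 fold change 0.06). *Fasn*, the fatty acid synthase, had -0.15, the fatty acid transporter *Cd36* 0.05, the gluconeogenic enzyme gene *Pck1* -0.39, the kinase *Pank1* -0.55 and the elongase *Elovl3* -1.46. *Ucp1*, the uncoupling protein of brown fat, was too low to be tested (0.201, 0.167 and 0.691 and 1.23, 2.09 and 0.631 normalized CPM).

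Lists of cell state also held 0 DEGs. The median was 0.25 for 20 immediate early genes, 0.14 for 20 genes of the unfolded protein and heat shock response, 0.02 for 15 glucocorticoid-responsive genes, -0.02 for 18 circadian clock genes and -0.09 for 22 cell proliferation genes. With 1 mouse left out (in brackets), they ran from 0.12 (unligatured mouse 2) to 0.34 (unligatured mouse 1), -0.03 (unligatured mouse 1) to 0.35 (unligatured mouse 3), 0.01 (unligatured mouse 2) to 0.23 (unligatured mouse 3), -0.24 (unligatured mouse 1) to 0.09 (unligatured mouse 3) and -0.27 (unligatured mouse 3) to 0.15 (unligatured mouse 1) in the same order. Among the most abundant members, *Jun* (0.23), *Dusp1* (0.02), *Hspa8* (0.11), *Hsp90b1* (0.19), *Errfi1* (-0.49), *Tsc22d3* (-0.22), *Tef* (-0.15), *Clock* (0.04), *Pcna* (0.23) and *Mki67* (-0.17) all had 95% intervals that include 0.

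**Figure D3:**
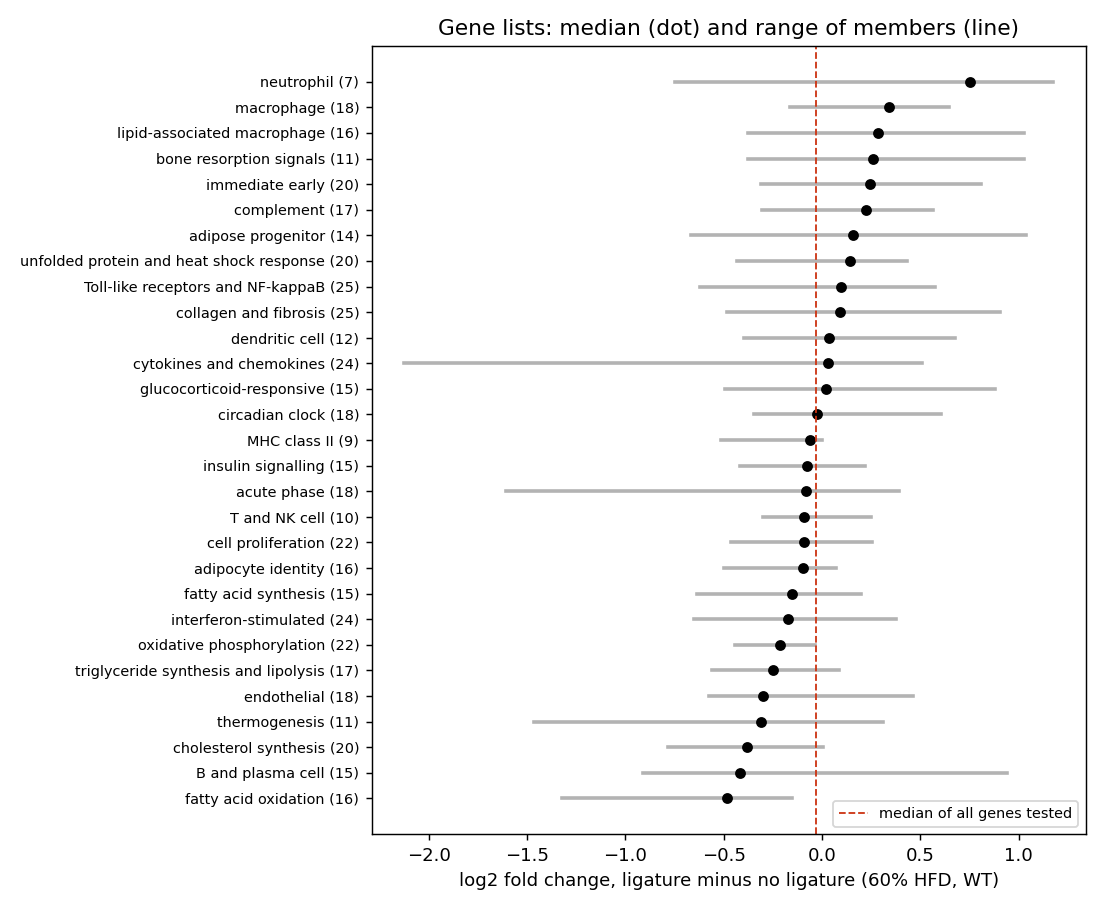
Median log2 fold change (dot) and range of the members (line) for each list of pathways and of cell types of adipose tissue (lists of other tissues are not drawn), with the number of tested genes in brackets, in WT mice fed a 60% HFD, ligature minus no ligature. The dashed line is the median of all genes tested (-0.03), and of the lists drawn those of fatty acid oxidation and neutrophils have the lowest and the highest median.

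RNA of other tissues was present in the 6 libraries. The summed level of 18 hepatocyte markers was 11962, 35295 and 49681 normalized CPM without ligature and 20176, 14675 and 44209 with ligature. None of the markers was at 0 in all 6 mice, and albumin, *Alb*, was the most abundant (5796, 17092 and 24132 without ligature, 9675, 7204 and 23618 with ligature). The groups overlapped, 0 of the 18 were DEGs, and the median log2 fold change was -0.25. Its sign rested on single mice, as it was 0.22 without unligatured mouse 3, 0.08 without ligatured mouse 2 and -0.88 without unligatured mouse 1. *Cyp2e1*, a cytochrome P450 of liver that adipose tissue also expresses, had a log2 fold change of -0.53. In ND-fed WT mice the same sum was 135, 1128 and 1543 without ligature and 16346, 16652 and 4643 with ligature, and all 18 markers were higher DEGs, as were 8.14% of all genes. In 60% HFD-fed CCL19-KI mice it was 1050.1, 1829.8 and 1395 and 25599.5, 21492 and 3352, with all 18 again higher DEGs, as were 8.00% of the genes tested in WT mice. In 40% HFD-fed WT mice it was 41608, 12073 and 45436 without ligature and 11082, 1934 and 31619 with ligature, and 6 of the 18 were lower DEGs, as were 7.60% of all genes. The part of this RNA in the results was not tested.

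Ligatured mouse 2 stood apart in reproductive tract genes. The sum of 16 epididymis markers was 0.335, 0.250 and 0.230 normalized CPM without ligature and 0.583, 53.6 and 1.01 with ligature, where *Crisp1*, a secreted protein of the epididymis, made up most of the value in mouse 2. *Lcn10*, *Defb15*, *Defb20* and *Cst11* were at 0 in all 6 mice. The sum of 12 male germ cell markers was 20.6, 11.5 and 13.1 and 14.3, 65.8 and 23.4, led by *Sycp3* of the meiotic chromosome axis (19.8, 11.1 and 12.9 and 14.1, 34.4 and 23.0), and *Tex101* was at 0 in all 6. The sum of 12 kidney tubule markers, led by the endocytic receptor *Lrp2*, was 252, 293 and 236 and 203, 538 and 150.2. None of the 12 was at 0 in all 6 mice. *Kap*, a kidney gene that androgen induces, was highest in ligatured mouse 2 as well (64.2, 73.1 and 50.2 and 42.5, 131 and 5.75). None of these lists held a DEG among its 6, 10 and 11 tested genes, and their medians were 0.96, 0.68 and -0.39. Without ligatured mouse 2 they were 0.09, 0 and -1.15, and that of the kidney list was 0.27 without ligatured mouse 3. Their part in the results was not tested.

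**Figure D4:**
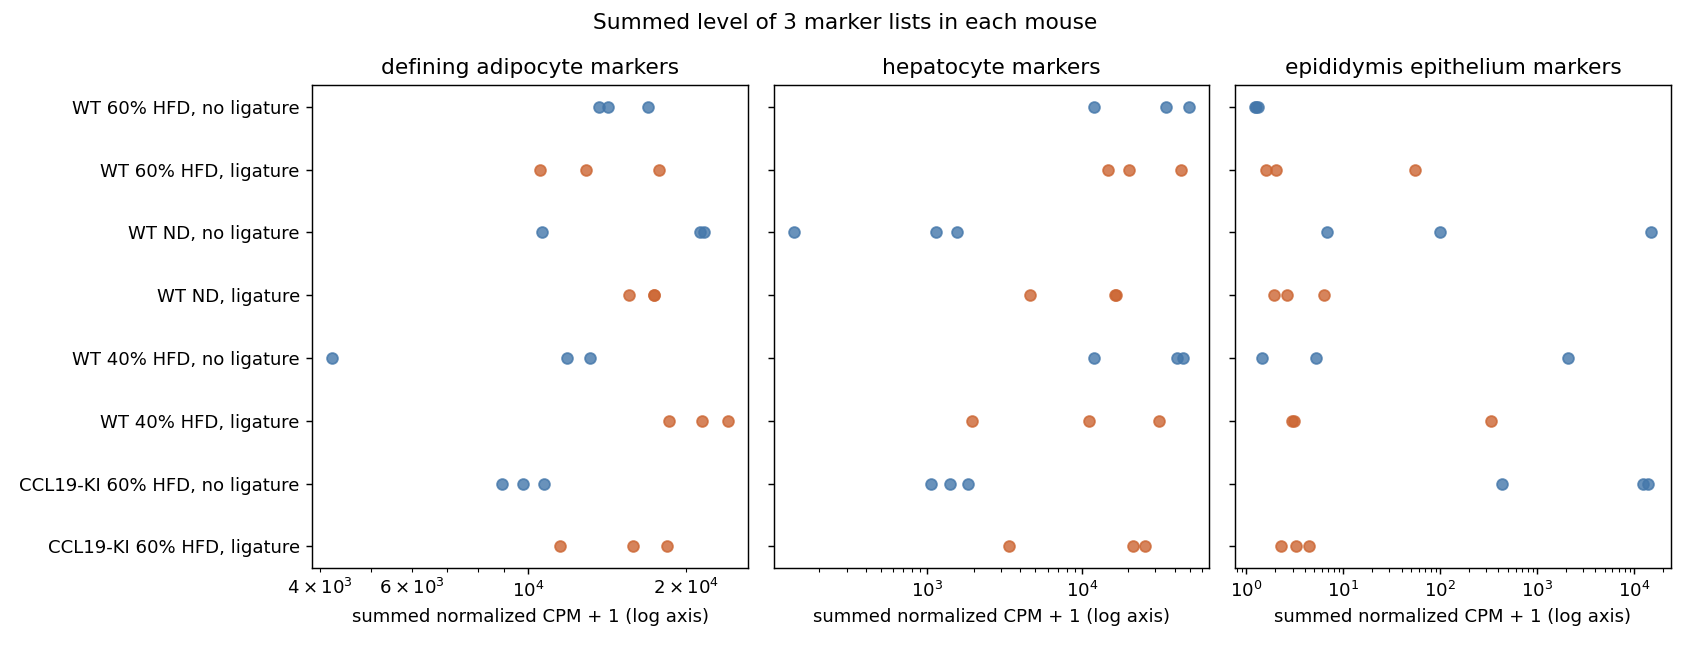
Summed normalized CPM plus 1 (log axis) of defining adipocyte, hepatocyte and epididymis epithelium markers in each mouse (dots) of 8 groups, blue without ligature and orange with ligature. In WT mice fed a 60% HFD the adipocyte and hepatocyte sums overlap, and ligatured mouse 2 holds the highest epididymis sum.

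Of the lymph node list, the sum was 28.0, 17.3 and 25.3 normalized CPM without ligature and 7.77, 8.35 and 11.5 with ligature, without overlap, and the methods of the study state that nodes were taken out before extraction. *Ccl21a*, the other ligand of CCR7 besides *Ccl19*, was the most abundant at 11.9, 5.25 and 7.07 and 0, 2.49 and 1.26 normalized CPM (log2 fold change -2.12, 95% interval -4.88 to 0.63). *Cxcl13*, a chemokine for B cells, had -0.59. All 8 tested genes lay below 0, also under each scaling, the median was -0.65 and 0 were DEGs. None of the markers in the table was at 0 in all 6 mice. The part of lymph node tissue in the lower B and plasma cell median was not tested.

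Erythroid markers summed to 1172, 802 and 2034 normalized CPM without ligature and 871, 1253 and 561 with ligature, led by the globin *Hbb-bs* (-0.52, with *Hba-a2* at -0.61). Smooth muscle and mural cell markers summed to 1201, 901 and 1226 and 947, 812 and 756, led by *Synpo2* (-0.29), with *Acta2* at -0.83 and *Pcp4* at 0 normalized CPM in all 6 mice. Skeletal muscle markers summed to 64.8, 63.7 and 124 and 53.3, 48.7 and 41.7, led by *Acta1* (-0.94), with *Des* at 0.07. The skeletal muscle sums were lower in all ligatured mice and the other sums overlapped. Mesothelial markers summed to 848, 1295 and 1384 and 1096, 1268 and 1254, led by *Upk3b* (-0.04) with *Muc16* at 0.36, and neuron and Schwann cell markers to 54.9, 60.9 and 63.9 and 68.5, 72.7 and 64.7, led by *Mbp* (0.29) with *Stmn2* at 0.32. Each gene is given with its log2 fold change. The neuronal sums did not overlap, with ligatured mouse 3 barely above unligatured mouse 3.

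Intestinal epithelium markers summed to 2036, 4655 and 7049.9 normalized CPM without ligature and 3017, 2489 and 6254 with ligature, nearly all of it *Apob*, which liver also expresses (-0.16), with *Fabp2* at -0.59. Exocrine pancreas markers summed to 40.0, 58.6 and 33.0 and 29.7, 33.2 and 39.3, led by *Cela1* (-0.13), with *Pnlip* at -0.65. Keratinocyte and gland epithelium markers summed to 23.8, 48.3 and 55.3 and 32.8, 48.4 and 59.2, led by *Dsp* (-0.29), and *Krt14* was their 1 DEG among 8 tested, where 0.396% of all genes were higher DEGs. These sums overlapped. The erythroid, smooth muscle, skeletal muscle, mesothelial, neuronal, intestinal and pancreas lists held 0 DEGs, with medians of -0.46, -0.30, -0.48, 0.05, 0.07, -0.30 and -0.50, and that of the keratinocyte list was 0.07. Without 1 mouse (in brackets) the erythroid median ran from -0.82 (unligatured mouse 2) to -0.10 (unligatured mouse 3), the smooth muscle median from -0.35 (unligatured mouse 3) to -0.23 (unligatured mouse 1), the skeletal muscle median from -0.56 (ligatured mouse 3) to -0.15 (unligatured mouse 2) and the mesothelial median from -0.20 (unligatured mouse 1) to 0.26 (unligatured mouse 3). The neuronal median ran from 0.01 (unligatured mouse 2) to 0.15 (ligatured mouse 1), the intestinal from -0.66 (unligatured mouse 1) to -0.03 (unligatured mouse 3), the pancreas from -0.84 (unligatured mouse 1) to 0.11 (unligatured mouse 2) and the keratinocyte median from -0.06 (unligatured mouse 1) to 0.17 (unligatured mouse 2). The part of these tissues in the results was not tested.

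The ligature effect was then set beside those of other groups, which share no mice with it. By the same criteria there were 2930 DEGs in ND-fed WT mice (17.8%), 1912 in 40% HFD-fed WT mice (11.6%) and 3321 in 60% HFD-fed CCL19-KI mice (18.6% of 17852 genes, in a fit of all 36 mice). Hepatocyte marker sums of ligatured and unligatured mice did not overlap under ND or in these CCL19-KI mice, nor did epididymis sums in the latter. The part of such RNA in these counts was not tested. Of the 65 higher DEGs, 16 were also higher DEGs under ND (24.6% of the 65 and 1.20% of the 1337 there, where 8.14% of all genes were higher DEGs) and 4 were lower DEGs. Under the 40% HFD the numbers were 6 in the same direction (9.23% of the 65 and 0.902% of 665) and 6 opposite, where 4.05% of all genes were higher DEGs. Among the genes tested in WT mice, those of CCL19-KI mice were 5 in the same direction (7.69% of the 65 and 0.381% of 1314, beside 8.00% of all genes) and 6 opposite. Of the 25 lower DEGs, 6 were lower under ND (24.0% of the 25 and 0.377% of 1593, beside 9.70% of all genes) and 0 opposite. Under the 40% HFD 2 were lower (8.00% and 0.160% of 1247, beside 7.60%) and 1 opposite, and in CCL19-KI mice 2 (8.00% and 0.126% of 1591, beside 9.69%) and 3 opposite.

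*Itga11*, *St6galnac5* and *Gm48015* were higher DEGs under all 3 diets in WT mice, and 0 genes were lower DEGs under all 3. *Itga11*, a collagen-binding integrin of fibroblasts, was at 15.2, 11.1 and 9.52 normalized CPM without ligature and 22.9, 39.6 and 14.3 with ligature under the 60% HFD. Its log2 fold change was 0.95 there, 0.89 under ND, 0.99 under the 40% HFD and 0.63 in 60% HFD-fed CCL19-KI mice. All ligatured mice but mouse 3 were above all unligatured mice in the 60% HFD groups. *St6galnac5*, a sialyltransferase, had 0.96, 1.14, 0.98 and 1.18 in the same order, and the predicted gene *Gm48015* had 0.83, 0.83, 1.10 and 0.20. Under the 60% HFD *Itga11* lost its call without ligatured mouse 2 (0.58) or unligatured mouse 3 (0.81), and *Gm48015* without ligatured mouse 1 (0.78) or 3 (0.85) or unligatured mouse 3 (0.70). *St6galnac5* kept its call only without ligatured mouse 3, and its change was 0.96 without ligatured mouse 1, 0.74 without ligatured mouse 2, and 1.05, 0.95 and 0.88 without unligatured mouse 1, 2 and 3.

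The difference between ligature effects was tested in the same fits. Against ND, 1642 genes met the criteria for a difference, 767 with a positive difference and 875 with a negative one, 1881 had an unadjusted p of at most 0.05, and 0 had an adjusted p below 0.05 in limma (smallest 0.136), against 36 in edgeR. Without ND-fed ligatured mouse 3 the last number was 10 in limma, without ND-fed unligatured mouse 1, 2 or 3 it was 1, 2 or 20, and without ND-fed ligatured mouse 1 the 1642 genes were 1015. Against the 40% HFD there were 736 genes, 277 with a positive difference and 459 with a negative one. An unadjusted p of at most 0.05 was found for 915, and 0 had an adjusted p below 0.05 in limma and in edgeR (smallest in limma 0.815). Under quantile normalization this split was 194 and 568, in edgeR 353 and 381, and with weights estimated gene by gene 549 and 403. The count was 466 without ligatured mouse 3 and 421 without unligatured mouse 1. It was 1492 (848 positive and 644 negative) without 40% HFD-fed unligatured mouse 2, and the split was 460 and 333 without 40% HFD-fed ligatured mouse 3.

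Between WT and CCL19-KI mice under the 60% HFD, 2719 genes met the criteria, 1533 with a positive and 1186 with a negative difference, 3091 had an unadjusted p of at most 0.05 and 2 had an adjusted p below 0.05 (1 in edgeR). The last number was 1 without WT ligatured mouse 1 or WT unligatured mouse 3, and 0 without any 1 of the other 4 WT mice of the 60% HFD. It was 0, 4 and 0 without CCL19-KI ligatured mouse 1, 2 and 3, and 30, 598 and 64 without CCL19-KI unligatured mouse 1, 2 and 3. The split into positive and negative differences was 1288 and 1337 without WT unligatured mouse 1, 1360 and 1364 without CCL19-KI ligatured mouse 3, and 914 and 1681 in a fit of only the 12 mice fed a 60% HFD. Leaving out mice of the ND, 40% HFD and CCL19-KI groups was chosen after seeing the data.

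By the smallest p, the genes that differed most from ND were *Gm45061*, *BB365896*, *Ugt1a6a*, *Serpina1e* and *Gadd45a*, none a DEG under the 60% HFD. *Gadd45a*, which is induced by DNA damage, was at 10.9, 9.59 and 8.91 normalized CPM without ligature and 9.85, 11.4 and 10.0 with ligature, even across the 6 mice. Its log2 fold change was 0.08 against -1.47 under ND, a difference of 1.55 (SE 0.28). *Serpina1e*, a protease inhibitor that liver secretes, had -0.56 against 7.27, and *Ugt1a6a*, a glucuronosyltransferase, -0.19 against 1.17. *Gm45061* had -0.17 against 2.41 and *BB365896* 0.11 against 2.78. The adjusted p of each difference was 0.136.

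From the 40% HFD the genes that differed most were *Btnl9*, *Bvht*, *Gm14226*, *Gm6055* and *Adamts15*, each with an adjusted p of 0.815. *Btnl9*, a butyrophilin-like gene of endothelial cells, was at 11.1, 14.1 and 9.83 normalized CPM without ligature and 7.77, 7.15 and 6.94 with ligature, without overlap. Its log2 fold change was -0.60 against 1.32 under the 40% HFD, a difference of -1.92 (SE 0.41). *Adamts15*, a protease of the matrix, was a higher DEG under the 60% HFD (13.5, 7.59 and 9.22 and 15.7, 16.0 and 14.5, log2 fold change 0.60) against -0.95, and met the criteria in only 1 of the 6 fits, that without unligatured mouse 1 (0.81). *Bvht* had -0.70 against 0.56, *Gm14226* 0.84 against -1.28 and *Gm6055* -0.37 against 1.28. For *Socs3*, the ligature effect was 1.05 under the 60% HFD, 1.13 under ND, -0.66 under the 40% HFD and -0.03 in CCL19-KI mice, and no difference of *Socs3* had an adjusted p below 0.05.

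**Figure D5:**
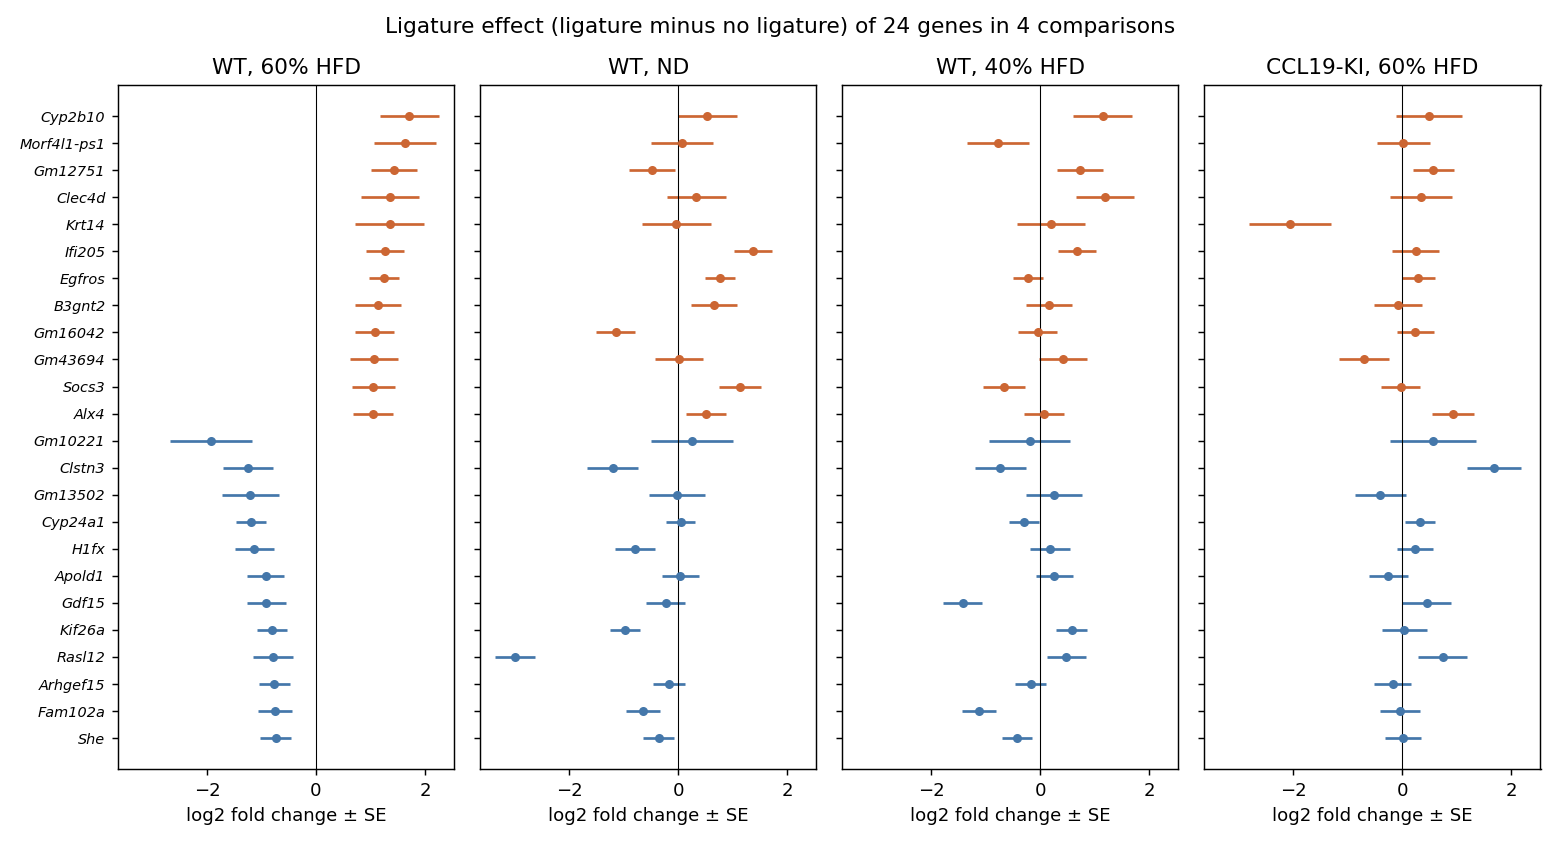
Log2 fold change with its SE (horizontal axis), ligature minus no ligature, of the 12 largest rises (orange) and 12 largest falls (blue) of 60% HFD-fed WT mice, in that comparison and in 3 others. The 24 genes were chosen in the leftmost panel, and in the other panels they lie on each side of 0.

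Between WT and CCL19-KI mice, *Cnbd2* and *St6galnac2* (ENSMUSG00000110170) had an adjusted p of 0.0201 and 0.0348 for the difference, which was 2.34 (SE 0.37) and 2.83 (SE 0.49) on the log2 scale. The ligature effect of *Cnbd2* in WT mice was 0.17, and *St6galnac2* was at or under the floor of 3 reads in all 6 WT mice and too low to be tested among the WT mice alone. In CCL19-KI mice, epididymis markers summed to 430.1, 12503 and 13849 normalized CPM without ligature and 3.38, 2.27 and 1.27 with ligature, and male germ cell markers to 1237, 39.9 and 178 and 35.3, 27.2 and 35.2, and their part in these differences was not tested. They were followed by *Ankmy1*, another entry named *St6galnac2* (ENSMUSG00000057286) and *Ppp1r26* (adjusted p 0.0685 each), the latter 2 with differences of 3.77 and 1.88 on the log2 scale. Their log2 fold changes were 0.30 and 0.34 in WT mice and -3.47 and -1.54 in CCL19-KI mice. *Ankmy1* was also too low to be tested among the WT mice alone, with group means of 0.0790 and 0.394 normalized CPM in unligatured and ligatured WT mice, 4.16 in unligatured and 0.271 in ligatured CCL19-KI mice. Its test likewise rests on the unligatured CCL19-KI mice and says nothing of a ligature effect in WT mice. *Ppp1r26*, a regulatory subunit of protein phosphatase 1, was at 0.920 ± 0.249 normalized CPM (mean ± SD) in unligatured and 1.49, 1.36 and 1.39 in ligatured WT mice, higher in all ligatured mice and not a DEG.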

How the data were processed

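RNA-seq libraries (rRNA-depleted, directional) of 36 eWAT samples were used. The deposited table holds the signal of each gene as normalized CPM. The authors trimmed reads with Trimmomatic 0.38, aligned and counted them with Bowtie2 within RSEM 1.3.0 and normalized counts with edgeR. The genome is mm10 in the methods and GRCm39 in the processing notes, so no coordinates are given except those of RefSeq promoters. Divided by the value that 1 read has in its library, 100% of values were whole (tolerance 0.01), and reads were recovered in this way. On these reads edgeR called 169 DEGs, with 0 adjusted p below 0.05 and 231 unadjusted p of at most 0.05, where limma had 189. Depth was 12009475 to 16690271 reads in the 6 libraries compared.

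Values were taken as log2(value + 1), and a gene was tested when 3 or more of the 18 WT libraries reached 1 normalized CPM, with limma 3.58.1 (R 4.3.3, moderated two-sided tests with an intensity trend, no covariates). The fit held 6 group means, and adjusted p follow Benjamini and Hochberg over all genes tested. Differences between ligature effects were contrasts of contrasts, with CCL19-KI mice in a fit of all 36. SDs in the text are across 3 mice. The code was tested on simulated data.

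The genes named were the 12 largest rises and 12 largest falls among DEGs whose groups did not overlap, genes with an adjusted p below 0.05, the DEGs or most abundant members of each list, 7 genes the study measured or named in eWAT, and the 5 genes with the smallest p for each difference. Of these, 2 list members were not used here. Members and lists were chosen with earlier results of these data known. The settings varied were the pseudocount (0.1 and 5), the filter (none, or a mean of at least 5), quantile normalization, median-of-ratios scaling, replicate number as a block, robust variances, sample quality weights, edgeR 4.0.16 on recovered reads, only the 6 mice, all 36 mice, only the 12 mice fed a 60% HFD (for WT minus CCL19-KI), a DEG ratio of 2, and leaving out each of the 6 mice. Chosen after seeing the data were weights estimated gene by gene, edgeR on only the 6 mice, only the 12 mice fed a 60% HFD (for the ligature effect in WT mice), and leaving out each mouse of the groups that differences were taken from.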

Additional observations from a re-analysis of the deposited data

Results flagged for a closer look

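A limma test of the difference between the ligature effects of WT and CCL19-KI mice under a 60% HFD gave an adjusted p below 0.05 for 2 genes, of which *St6galnac2* was near 0 reads in all groups but 1. For *Cnbd2*, which encodes a cyclic nucleotide-binding domain protein, the levels were 2.08, 3.17 and 3.53 normalized CPM in unligatured WT mice and 2.79, 3.93 and 3.41 in ligatured WT mice. In CCL19-KI mice they were 19.9, 11.0 and 28.9 without ligature and 3.29, 4.16 and 2.68 with ligature. The unligatured CCL19-KI mice were thus above the other 9 mice, which overlapped. The difference, WT minus CCL19-KI, was 2.34 on the log2 scale (SE 0.37, adjusted p 0.0201), and over the alternatives its adjusted p ran from 3.59e-05 to 0.126. It was above 0.05 without ligatured mouse 2 (0.126) or 3 (0.0850) or unligatured mouse 1 (0.117) or 2 (0.0553) of the WT groups, and with only the 12 mice fed a 60% HFD (0.0646). Without CCL19-KI ligatured mouse 1 or 3 it was 0.0845 or 0.118, and without CCL19-KI unligatured mouse 1, 2 or 3 it was 0.0120, 3.59e-05 or 0.0270. Leaving out CCL19-KI mice was chosen after seeing the data.

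Markers of reproductive tissue were high in the same unligatured CCL19-KI mice. Epididymis markers summed to 430.1, 12503 and 13849 normalized CPM there and 3.38, 2.27 and 1.27 in ligatured CCL19-KI mice, and male germ cell markers to 1237, 39.9 and 178 and 35.3, 27.2 and 35.2. The part of RNA from these tissues in *Cnbd2* and *St6galnac2* was not tested.

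For *St6galnac2* (ENSMUSG00000110170), a sialyltransferase gene, unligatured WT mice held 1, 0 and 1 reads and ligatured WT mice 0, 3 and 3. Unligatured CCL19-KI mice held 286, 28 and 111 reads (16.3, 2.02 and 5.45 normalized CPM) and ligatured CCL19-KI mice 1 read each. It was too low to be tested among the WT mice alone, and of the 12 mice of this comparison only the unligatured CCL19-KI mice reached 1 normalized CPM, so it entered the test through that group. The test therefore says nothing of a ligature effect in WT mice. The difference was 2.83 on the log2 scale (SE 0.49, adjusted p 0.0348), a fitted value that depends on the pseudocount because all WT mice were at or under 3 reads. Over the alternatives its adjusted p ran from 6.43e-06 to 0.163. It was 0.0367 with the replicate block, and leaving out each of the 6 WT mice moved it to 0.0694 (ligatured mouse 1), 0.163 (ligatured mouse 2), 0.134 (ligatured mouse 3), 0.117 (unligatured mouse 1), 0.135 (unligatured mouse 2) and 0.113 (unligatured mouse 3). Without CCL19-KI ligatured mouse 1, 2 or 3 it was 0.129, 0.0505 or 0.118, and without CCL19-KI unligatured mouse 1, 2 or 3 it was 0.0120, 6.43e-06 or 0.0270. Pseudocounts of 0.1 and 5, edgeR and the 12 mice gave 0.0851, 0.0950, 0.0596 and 0.104. Another entry of the same symbol exists, and how reads were divided between the entries was not tested.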

How the results depend on the processing

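The 24 genes of the largest rises and falls kept their sign wherever they were tested, with 0 reversed, but calls were lost: 11 with a pseudocount of 5 (*Gm12751*, *Gm16042*, *Gm43694*, *Alx4*, *Gm13502*, *Cyp24a1*, *Apold1*, *Gdf15*, *Kif26a*, *Arhgef15* and *She*), 4 with 0.1 (*Krt14*, *Gm13502*, *Gdf15* and *Rasl12*), 4 in edgeR (*Gm10221*, *Gm13502*, *Gdf15* and *Rasl12*), 4 with all 36 mice (*Krt14*, *Gdf15*, *Kif26a* and *Rasl12*), 5 of 22 tested with the 12 mice fed a 60% HFD (*B3gnt2*, *Gdf15*, *Kif26a*, *Arhgef15* and *She*), 7 with a ratio of 2 (*Apold1*, *Gdf15*, *Kif26a*, *Rasl12*, *Arhgef15*, *Fam102a* and *She*), and 1 each with quantile normalization and the block (*Rasl12*), with each kind of weights (*B3gnt2*), with a mean of at least 5 (*Krt14*, of 8 tested) and in edgeR on the 6 mice (*Gm13502*, of 22 tested). The number of DEGs in 60% HFD-fed WT mice (90, 65 higher and 25 lower) was 153 (100 and 53) with a pseudocount of 0.1, 40 (27 and 13) with 5, 38 (31 and 7) with a mean of at least 5, 169 (129 and 40) in edgeR, 216 (102 and 114) with only the 6 mice and 26 (19 and 7) with a ratio of 2. Sample quality weights gave 1108 (405 and 703) with 596 adjusted p below 0.05, an estimate that did not converge and gave library weights from 0.00567 to 15.7. Chosen after seeing the data, gene-by-gene weights gave 858 (324 and 534) with 4 adjusted p below 0.05 (*Ifi205*, *Egfros*, *Osmr* and *Cyp24a1*), edgeR on the 6 mice 340 (212 and 128), and only the 12 mice fed a 60% HFD 63 lower DEGs. With the other alternatives the counts stayed within 1.5 times, such as 102 for the replicate block. Replicate numbers do not pair the mice: after removal of gene means, profiles of the same number correlated at 0.20, -0.24 and 0.41. Leaving out each of the 6 mice gave 73 to 219 DEGs (38 to 146 higher, 26 to 73 lower) and 0 adjusted p below 0.05. For the difference from ND (1642, with 0 adjusted p below 0.05), the latter were 10 with a pseudocount of 0.1, 2 with 5 (1019 genes), 2 with the block, 36 in edgeR, 5061 with weights (5162 genes) and 3522 with gene-by-gene weights (4747 genes), and leaving out each of the 12 mice of the 4 groups gave 1015 to 2317 genes and 0 to 20. For the difference from the 40% HFD, the count (736) was 485 with a pseudocount of 5 and 421 to 1492 without each of its 12 mice, with 0 adjusted p below 0.05 in the latter. For WT minus CCL19-KI, the adjusted p below 0.05 numbered 1 with a pseudocount of 0.1, 7 with the block, 11 with the 12 mice and 1 in edgeR, and without each of its 12 mice 0 to 598 (1889 to 3185 genes). Leaving out mice other than the 6 of the 60% HFD-fed WT groups was chosen after seeing the data. The cause was not tested. Depth limits genes near 3 reads per library, 0.189 to 0.250 normalized CPM.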
